A study of Mus musculus with 18 samples.

Results

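The Hox genes encode homeodomain transcription factors and lie in 4 clusters, HoxA to HoxD. All 39 of them were examined in Lgr5+ cells sorted from crypts of the small intestine (SI) and large intestine (LI). The members were taken as every gene in the raw count table whose symbol is Hox, a cluster letter from a to d and a paralogue number, which gave 39 of 43346 genes: 11 in HoxA, 10 in HoxB, 9 in HoxC and 9 in HoxD. All libraries came from untreated C57BL/6 mice of genotype Lgr5_eGFP_Iris_creERT2, given as 8 to 20 weeks old after birth in the sample labels. In these mice GFP is made from the Lgr5 locus, and its expression is patchy, so that crypts without GFP gave no cells. Live Epcam+ cells were sorted by GFP into high (centre), medium (border) and low (row >3) cells at each site, which gave 6 groups of 3 replicates and 18 libraries of bulk RNA. The study describes the replicates as biological, and the labels give their numbers without naming the mouse of origin or the stretch of intestine that was used.

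Along each cluster, genes at the 3' end (low paralogue numbers, called anterior) are used towards the head of the embryo and genes at the 5' end (high numbers, called posterior) towards the tail, an order known as collinearity. HOX proteins bind DNA with PBX and MEIS or PKNOX cofactors. Polycomb proteins keep unused Hox genes silent, MLL (KMT2) complexes maintain active ones, and CDX1 and CDX2, which specify intestinal epithelium, are known regulators of the clusters. In the gut, combinations of Hox genes mark position from stomach to rectum.

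On the GRCm38 (mm10) assembly, HoxA spans chr6:52155590-52260880 on the minus strand, HoxB chr11:96194316-96368256, HoxC chr15:102921103-103036852 and HoxD chr2:74668310-74765142, the last 3 on the plus strand (GENCODE M21). Promoter windows of 300 bases, from 250 before to 50 after the annotated start, were available from RefSeq for 22 of the 39 genes (24 windows, GRCm38.p6). A pair of HoxA genes that separated most SI libraries from the LI and a pair of HoxB genes that were detected in every library are shown, 5' to 3' on the strand of the gene. Capitals mark matches to TTTATNG, the core letters that CDX proteins bind, searched on both strands. The windows lie at chr6:52218524-52218823 (minus strand) for Hoxa7, chr6:52227321-52227620 (minus strand) for Hoxa9, chr11:96318017-96318316 (plus strand) for Hoxb4 and chr11:96281655-96281954 (plus strand) for Hoxb8.
Hoxa7: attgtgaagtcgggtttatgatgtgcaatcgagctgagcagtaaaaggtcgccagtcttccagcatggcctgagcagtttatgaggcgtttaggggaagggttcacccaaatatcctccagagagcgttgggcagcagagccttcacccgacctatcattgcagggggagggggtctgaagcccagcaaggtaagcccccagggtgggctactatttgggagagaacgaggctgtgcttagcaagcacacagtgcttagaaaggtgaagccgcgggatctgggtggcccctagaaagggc
Hoxa9: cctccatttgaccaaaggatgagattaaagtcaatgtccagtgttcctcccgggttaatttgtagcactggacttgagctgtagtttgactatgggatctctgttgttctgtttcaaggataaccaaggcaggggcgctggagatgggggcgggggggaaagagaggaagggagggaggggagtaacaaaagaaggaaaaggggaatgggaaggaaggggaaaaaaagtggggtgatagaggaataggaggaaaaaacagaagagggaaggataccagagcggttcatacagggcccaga
Hoxb4: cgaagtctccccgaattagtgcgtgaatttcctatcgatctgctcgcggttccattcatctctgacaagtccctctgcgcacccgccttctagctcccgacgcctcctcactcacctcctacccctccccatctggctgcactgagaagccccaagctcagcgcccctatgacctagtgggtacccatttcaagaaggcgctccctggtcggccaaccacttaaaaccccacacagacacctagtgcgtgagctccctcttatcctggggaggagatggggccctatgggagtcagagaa
Hoxb8: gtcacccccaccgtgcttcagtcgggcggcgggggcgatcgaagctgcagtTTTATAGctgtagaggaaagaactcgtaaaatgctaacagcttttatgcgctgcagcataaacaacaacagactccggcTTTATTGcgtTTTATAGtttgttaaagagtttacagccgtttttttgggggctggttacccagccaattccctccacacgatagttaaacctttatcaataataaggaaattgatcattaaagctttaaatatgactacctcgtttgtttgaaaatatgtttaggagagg
Of these, the Hoxb8 window held 3 matches and the other 3 windows shown held none. TTTATNG was in 2 of the 24 Hox windows (Hoxb8 and Hoxd4) and in 10.9% of all 32851 promoter windows of this length. TGACAG, the core of MEIS and PKNOX sites, was in 2 Hox windows (Hoxa2 and Hoxa3) and 19.2% of all windows, and TGATTNAT, bound by HOX and PBX together, in 2 (Hoxa2 and 1 of the windows of Hoxd11) and 3.22%. The dinucleotide CG occurred a median of 14.5 times in the Hox windows against 7 over all windows, of which 34.6% were at or above the Hox median. Hoxa7 and Hoxa9 were at the low end with 9 and 4, against 14 in Hoxb4 and 13 in Hoxb8.

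The libraries held between 8312093 and 31940965 counts. Levels are given as CPM, the count scaled to a fixed library total after multiplying that total by its TMM factor, and a count of 0 in 1 library allowed a level of up to 0.0996 to 0.333 CPM, depending on its depth. The sorted cells were epithelial by their markers: Epcam, Krt8, Krt18, Krt19, Cdh1, Vil1 and Cldn7 summed to between 3246 and 8337 CPM in every library. Markers of other cell types, which can use Hox genes too, were low. The 14 stromal markers summed to between 1.73 and 21.3 CPM, and 9 of the 14 stayed under 1 CPM in all libraries. The 5 endothelial markers summed to at most 5.88 CPM, the 7 neural and glial markers to at most 8.93 CPM and the 10 immune markers to at most 27.4 CPM, of which Ptprc alone reached 1 CPM in any library.

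The 3 libraries of SI replicate 3 (centre, border and row >3) stood apart from the other 6 SI libraries, and the comparisons of Hox genes below that use SI libraries are given with and without them. Car1, a carbonic anhydrase of LI epithelium, was at 82.1 to 1939 CPM in SI replicate 3, 0 to 10.4 CPM in the other SI libraries and 123 to 1348 CPM in the LI. Reg4, a secreted lectin of LI crypts, was at 1173 to 2557 CPM in SI replicate 3, 14.4 to 84.3 CPM in the other SI libraries and 1039 to 3204 CPM in the LI. Gata4, a transcription factor of the proximal SI that was at or near 0 in the LI, had 7.39, 6.52 and 6.93 CPM in the SI centre libraries, 10.3, 10.2 and 7.42 CPM in the border and 14.7, 13.1 and 6.44 CPM in row >3. Lyz1, made by Paneth cells, had 549, 2388 and 601 CPM in SI centre, 926, 1874 and 103 CPM in border and 888, 1115 and 46.7 CPM in row >3, against at most 0.0783 CPM in any LI library. The 7 Paneth cell markers summed to 165 to 1673 CPM in SI replicate 3, 1507 to 7233 CPM in the other SI libraries and at most 11.996 CPM in the LI. Thus SI replicate 3 held SI genes together with LI genes. Its part in the Hox results is given by the values without it, and where it came from was not tested.

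Hox expression was restricted to a part of the clusters. Of the 39 genes, 19 reached a group mean of 1 CPM: 9 of 11 in HoxA (Hoxa2 to Hoxa11), 8 of 10 in HoxB (Hoxb2 to Hoxb9), none of 9 in HoxC and 2 of 9 in HoxD (Hoxd4 and Hoxd8). Hoxc10, Hoxc11, Hoxc12, Hoxd9, Hoxd10 and Hoxd12 had no count in any of the 18 libraries, and 3 counts over all of them would be 0.00784 CPM. The other 14 genes under 1 CPM had between 1 and 130 counts over all libraries. Both ends of the HoxB cluster, Hoxb1 with 4 counts and Hoxb13 with 2, were among them. HoxB gave the most signal in every library: its summed level was 139 to 197 CPM in SI replicates 1 and 2, 336 to 391 CPM in SI replicate 3 and 267 to 443 CPM in the LI. The summed level of HoxA was 2.75 to 5.52 CPM in SI replicates 1 and 2, 116 to 144 CPM in SI replicate 3 and 142 to 203 CPM in the LI. As a share of all Hox signal, HoxA made up 1.36% to 3.60%, 24.6% to 28.8% and 29.7% to 35.3% in these 3 sets. In bulk RNA, fewer cells that express a gene and less RNA per cell cannot be told apart.

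**Figure D1:**
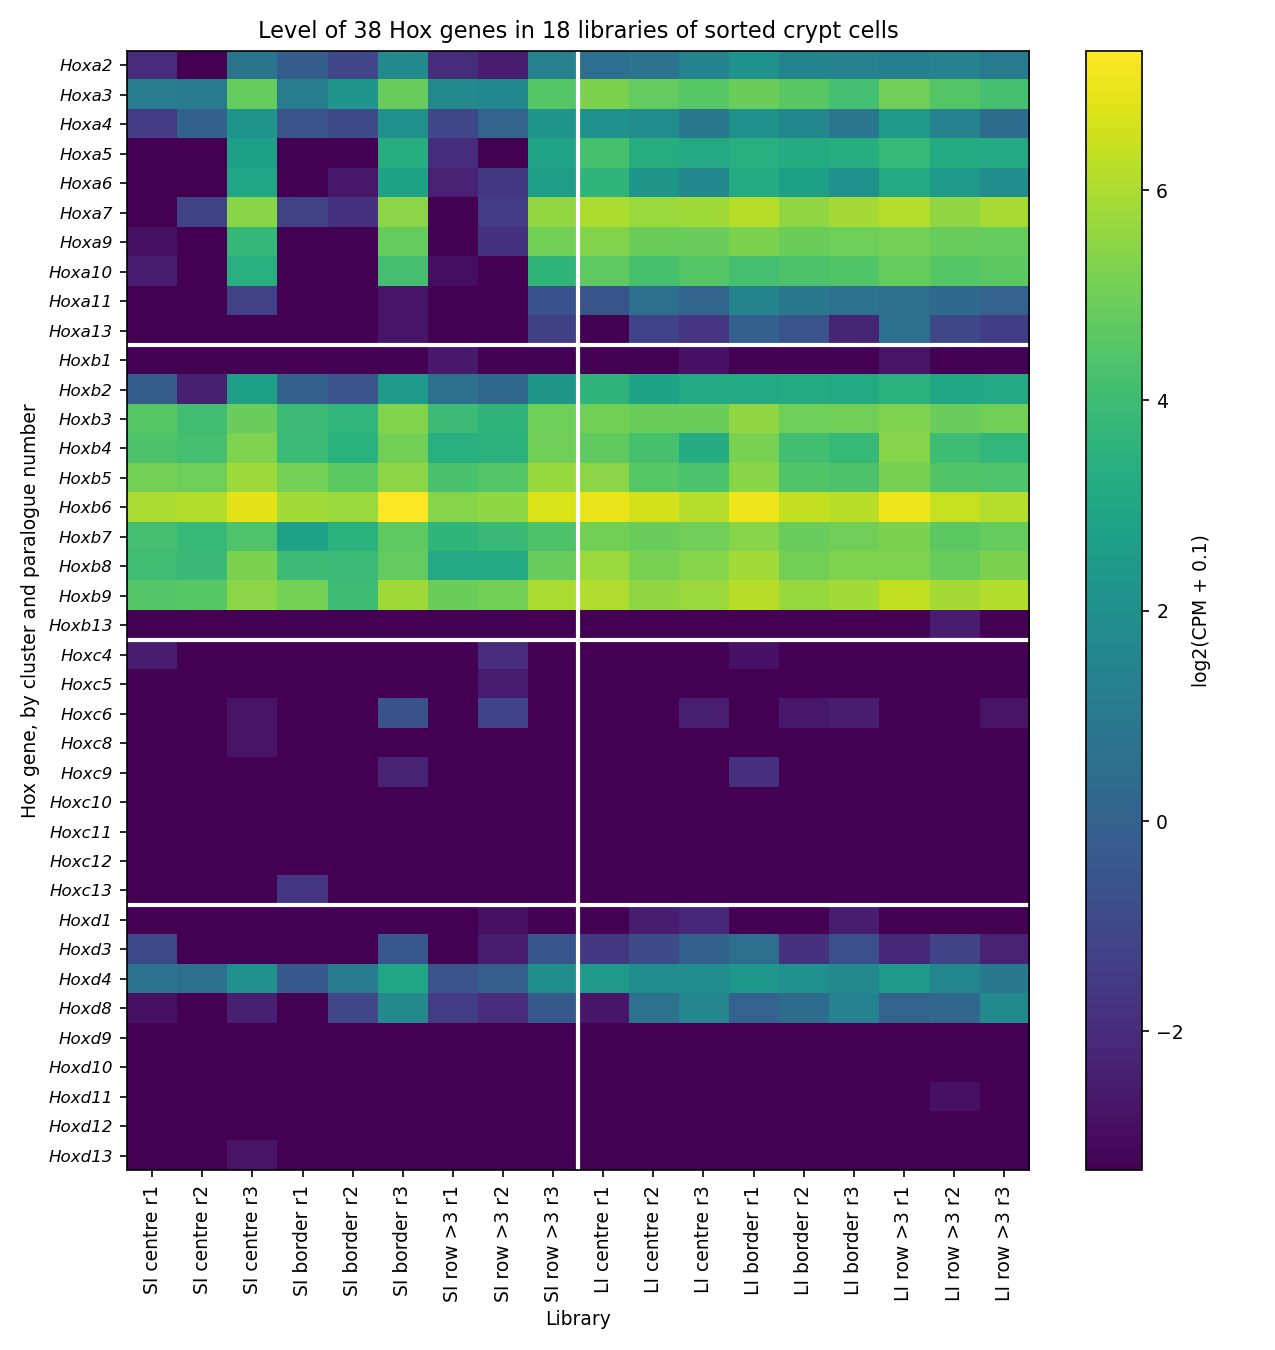
Levels of 38 of the 39 Hox genes (rows, by cluster and paralogue number, white lines between clusters) in the 18 libraries (columns, r1 to r3 for the replicates, a white line between SI and LI), as log2 of CPM plus 0.1. Hoxa5 to Hoxa10 are dark in SI replicates 1 and 2 and bright in SI replicate 3 and the LI, HoxB is bright throughout from Hoxb3 to Hoxb9, and HoxC is dark in all libraries.

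Among the anterior HoxA genes, Hoxa2, which patterns the hindbrain, was low at both sites. Its level was 0.157, 0 and 1.61 CPM in SI centre replicates 1, 2 and 3, 0.777, 0.376 and 3.26 CPM in SI border and 0.166, 0.0763 and 2.41 CPM in SI row >3. In the LI it was 1.39, 1.57 and 2.61 CPM in centre, 4.16, 2.71 and 2.51 CPM in border and 2.32, 2.54 and 2.06 CPM in row >3. Replicates 1 and 2 of the SI were below every LI library of the same level, and replicate 3 was not. Hoxa3 was the only anterior HoxA gene above 10 CPM, at 2.2, 2.01 and 27.8 CPM in SI centre, 2.11, 4.45 and 28.7 CPM in SI border and 3.09, 3.02 and 22.5 CPM in SI row >3. The LI libraries held 36.9, 27.5 and 23.4 CPM of Hoxa3 in centre, 30.1, 24.5 and 17.7 CPM in border and 32.4, 22.4 and 18.2 CPM in row >3. SI replicates 1 and 2 thus kept 6.87% to 18.5% of the LI mean of Hoxa3, and replicate 3 had 92.6% to 119% of it. Of the exon bases of Hoxa3, 25.4% overlap genes on the opposite strand, and the strand setting of the counting is not given in the sources used here.

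The central HoxA genes followed the same division of libraries. Hoxa4 was at 0.275, 0.893 and 4.45 CPM in SI centre, 0.555, 0.439 and 4.0 CPM in SI border and 0.398, 0.954 and 4.58 CPM in SI row >3, and at 4.18, 3.67 and 1.89 CPM, 4.34, 2.97 and 1.70 CPM and 5.20, 2.54 and 1.25 CPM in the same levels of the LI. SI replicate 3 lay above the LI mean of Hoxa4 at each level. Hoxa5, which has roles in lung and gut development, was at 0, 0 and 6.38 CPM in SI centre, 0, 0 and 9.95 CPM in SI border and 0.166, 0 and 7.38 CPM in SI row >3. Its LI levels were 18.6, 9.76 and 8.45 CPM, 10.4, 9.27 and 9.85 CPM and 14.1, 9.16 and 9.02 CPM. In SI replicates 1 and 2, Hoxa5 had 5 counts in all, from 1 of the 6 libraries. Hoxa6 was at 0, 0 and 7.53 CPM in SI centre, 0, 0.0627 and 7.10 CPM in SI border and 0.0996, 0.229 and 6.13 CPM in SI row >3, against 12.4, 4.86 and 3.03 CPM, 9.18, 6.62 and 4.25 CPM and 8.93, 5.13 and 3.65 CPM in the LI. The SI replicate 3 libraries were inside the range of the LI.

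Hoxa7 was the most abundant HoxA gene per kilobase of exon in each of the 3 LI groups, at 20.1 ± 1.94, 20.8 ± 4.64 and 20.8 ± 4.21 CPM per kb in centre, border and row >3 (SD, n = 3). It was at 0, 0.357 and 43.2 CPM in SI centre, 0.333, 0.188 and 44.4 CPM in SI border and 0, 0.267 and 47.9 CPM in SI row >3. In the LI it was at 63.8, 52.9 and 56.4 CPM in centre, 73.5, 46.9 and 58.8 CPM in border and 71.1, 47.0 and 61.2 CPM in row >3. SI replicates 1 and 2 together held 8, 6 and 7 counts of Hoxa7 at the 3 levels, where the LI libraries held 3857, 3890 and 4036. In SI replicate 3, Hoxa7 was at 74.8%, 74.4% and 80.1% of the LI mean. The antisense transcript Hoxaas3, which covers 20.4% of the exon bases of Hoxa7, had the same division: 0.236, 0.536 and 5.51 CPM in SI centre, 0.999, 0.0627 and 8.05 CPM in SI border and 0.0332, 0.344 and 13.7 CPM in SI row >3, against 7.60 to 16.9 CPM in the LI.

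The posterior HoxA genes Hoxa9 and Hoxa10 were expressed in every LI library. Hoxa9 was at 39.3, 30.8 and 29.8 CPM in LI centre, 37.5, 30.5 and 31.2 CPM in border and 34.1, 29.2 and 28.2 CPM in row >3. Its SI levels were 0.0393, 0 and 13.4 CPM in centre, 0, 0 and 28.1 CPM in border and 0, 0.191 and 33.5 CPM in row >3. Replicate 3 of the SI thus had 40.2% of the LI mean in centre, 84.9% in border and 110.0% in row >3. Hoxa10 was at 25.9, 18.4 and 22.7 CPM in LI centre, 17.9, 20.1 and 21.8 CPM in border and 27.7, 22.6 and 24.7 CPM in row >3, and at 0.0786, 0 and 10.6 CPM, 0, 0 and 18.1 CPM and 0.0332, 0 and 12.3 CPM in the SI. Only 3 counts of Hoxa10 were found in the 6 libraries of SI replicates 1 and 2. Hoxa11, the last HoxA gene to reach 1 CPM, was at 0.580, 1.38 and 0.967 CPM in LI centre, 2.58, 1.83 and 1.51 CPM in border and 1.32, 1.14 and 0.912 CPM in row >3. In the SI it was at 0, 0 and 0.321 CPM, 0, 0 and 0.0526 CPM and 0, 0 and 0.543 CPM, which is 7, 1 and 7 counts, all from replicate 3. Every SI library was below every LI library of its level for Hoxa11. Its antisense gene Hoxa11os covers 34.98% of its exon bases. Hoxa13, the gene of the hindgut terminus, had 96 counts over all libraries and no count in SI replicates 1 and 2.

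**Figure D2:**
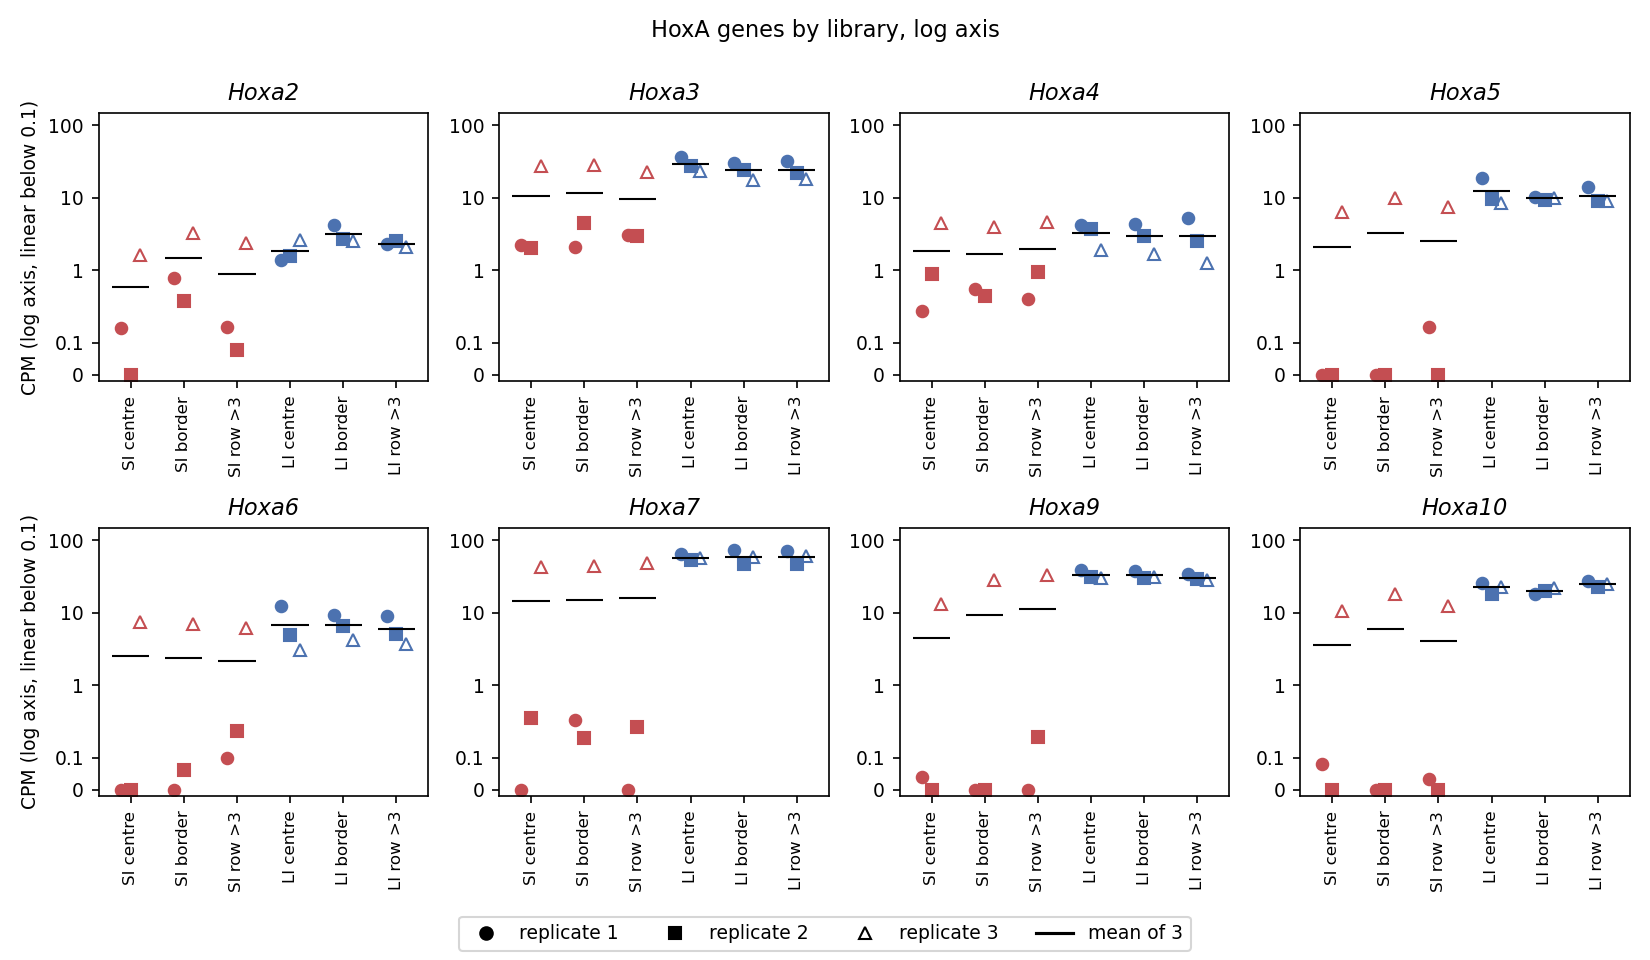
CPM of Hoxa2 to Hoxa10 in each library (y axis, log scale that is linear below 0.1) by group (x axis), with circles, squares and open triangles for replicates 1, 2 and 3 and a line for the mean of 3. From Hoxa5 on, SI replicates 1 and 2 lie at or near 0 and the SI triangles lie near the LI points, whereas Hoxa2 to Hoxa4 keep a low level in SI replicates 1 and 2.

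HoxB was expressed at both sites. Hoxb2, an anterior gene, was at 0.786, 0.0893 and 6.61 CPM in SI centre, 0.888, 0.564 and 5.16 CPM in border and 1.36, 1.07 and 4.89 CPM in row >3. Its LI levels were 12.1, 7.18 and 8.78 CPM, 8.87, 9.34 and 8.76 CPM and 10.9, 8.14 and 8.59 CPM. The 9 SI libraries were each below the LI libraries of their level, replicate 3 included, which had 53.0% to 70.6% of the LI mean. Hoxb3 was at 23.7, 16.8 and 29.9 CPM in SI centre, 15.5, 12.9 and 39 CPM in SI border and 15.7, 12.2 and 31.0 CPM in SI row >3, with 32.9, 30.5 and 30.8 CPM, 47.2, 31.8 and 32.1 CPM and 38.2, 30.0 and 32.0 CPM in the LI. The sites did not overlap for Hoxb3 in centre cells and overlapped through SI replicate 3 at the other levels. The gene Hoxb3os on the opposite strand covers 27.3% of the exon bases of Hoxb2 and 52.9% of those of Hoxb3, and it had at most 61 counts in a library.

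Among the central HoxB genes, Hoxb4, known for its use in expanding blood stem cells, overlapped between the sites at all levels. It was at 20.3, 18.2 and 38.2 CPM in SI centre, 15.3, 11 and 32.8 CPM in border and 10.4, 11.3 and 32.4 CPM in row >3. The LI libraries had a wide range too, at 26.1, 18.7 and 9.67 CPM in centre, 36.1, 17.2 and 14.1 CPM in border and 41.7, 16.1 and 13.2 CPM in row >3. Hoxb5 also overlapped, at 34.2, 31.4 and 53.7 CPM, 34.3, 25.1 and 44.2 CPM and 19.1, 22.1 and 51.3 CPM in SI centre, border and row >3, and 43.9, 23.3 and 19.5 CPM, 42.8, 21.8 and 20.1 CPM and 35.3, 21.6 and 20.9 CPM in the LI. Hoxb6 had the highest level per kilobase of all 39 genes in every group, from 32.6 ± 18.2 CPM per kb in SI row >3 to 49.9 ± 14.1 in LI centre (SD, n = 3). In CPM it was at 62.6, 68.9 and 119.5 in SI centre, 58.3, 53.3 and 160.4 in SI border and 41.4, 45.5 and 105 in SI row >3. The LI values of Hoxb6 were 125, 98.9 and 69.8 CPM, 135, 81.7 and 72 CPM and 131, 82.9 and 70.1 CPM, and the sites overlapped at all levels.

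For Hoxb7 the sites did not overlap at any level. It was at 17.4, 13.8 and 20.8 CPM in SI centre, 6.77, 10.9 and 25.9 CPM in SI border and 12.3, 14.5 and 20.2 CPM in SI row >3. In the LI it was at 33.4, 29.3 and 32.6 CPM, 41.9, 28.9 and 32.6 CPM and 37.1, 24.7 and 28.1 CPM, and no SI library reached the lowest LI library of its level. Hoxb8 was at 16.5, 14.2 and 37.5 CPM in SI centre, 15.8, 15.2 and 27.2 CPM in SI border and 8.57, 8.93 and 28.6 CPM in SI row >3. Its LI levels were 53.2, 36.1 and 42.0 CPM, 57.5, 32.9 and 38.8 CPM and 38.1, 28.8 and 36.9 CPM. Only in centre cells did the sites overlap, through SI replicate 3. The posterior gene Hoxb9 was second in level per kilobase in each LI group. It was at 22, 23.5 and 44.4 CPM in SI centre, 34.0, 16.3 and 56.4 CPM in SI border and 30.1, 33.2 and 62.3 CPM in SI row >3, against 66.0, 46.8 and 53.4 CPM, 73.5, 50.7 and 57.4 CPM and 81.7, 59.4 and 68.1 CPM in the LI. In LI centre and border, the levels per kilobase of Hoxb9, Hoxb7 and Hoxa7 lay within 1 SD of each other. In LI row >3, Hoxb9 was at 27.1 ± 4.37 CPM per kb, above Hoxa7 with 20.8 ± 4.21 and Hoxb7 with 19.4 ± 4.15 (SD, n = 3). In the means over all SI replicates, Hoxb5 and Hoxb9 followed Hoxb6 in level per kilobase and lay within 1 SD of each other in each group. In SI replicates 1 and 2 alone, Hoxb6 was also first in each group, at 21.1 to 35.1 CPM per kb. Below it the order stayed so only in SI border. In SI centre, Hoxb7 was at 11.3 and 8.94 CPM per kb in these replicates and ranked above Hoxb9 with 8.53 and 9.13. In SI row >3, Hoxb7 was at 7.96 and 9.39 CPM per kb and ranked above Hoxb5 with 6.84 and 7.95.

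**Figure D3:**
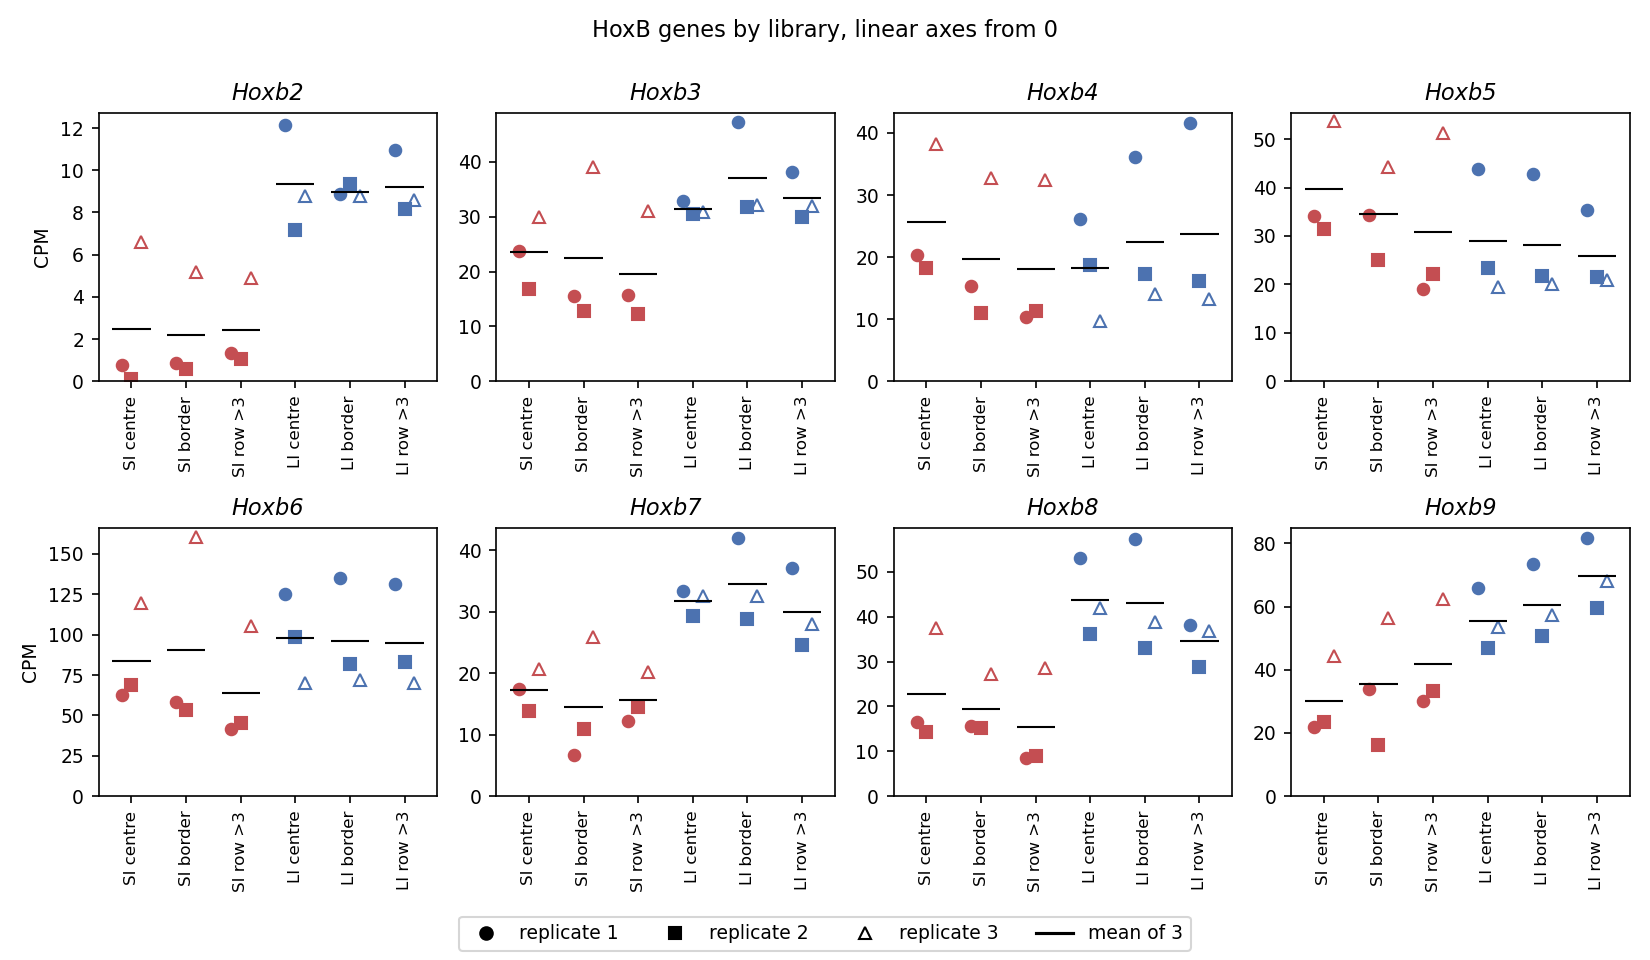
CPM of Hoxb2 to Hoxb9 in each library (linear y axes that start at 0 and differ between panels) by group, with circles, squares and open triangles for replicates 1, 2 and 3 and a line for the mean of 3. The SI triangle is the highest of the 3 SI points at each level in each panel, and only in Hoxb2 and Hoxb7 do all SI points lie below the LI points of their level.

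In HoxD, Hoxd4 was at 1.57, 1.43 and 4.04 CPM in SI centre, 0.666, 1.94 and 7.89 CPM in SI border and 0.565, 0.840 and 3.80 CPM in SI row >3, and at 5.40, 3.52 and 3.49 CPM, 5.07, 4.04 and 3.09 CPM and 5.15, 2.82 and 1.82 CPM in the LI. Of its exon bases, 52.3% are shared with transcripts on the same strand, Hoxd3 among them, so the reads of these genes are not assigned with certainty. Hoxd8 was at 0.0393, 0 and 0.0918 CPM in SI centre, 0, 0.376 and 3.10 CPM in SI border and 0.266, 0.153 and 0.699 CPM in SI row >3. In the LI it was at 0.0580, 1.53 and 2.82 CPM, 0.905, 1.26 and 2.55 CPM and 0.957, 1.06 and 3.26 CPM, so that replicate 1 of LI centre was as low as the SI. Hoxd3 had 130 counts over all libraries, and the HoxC genes had at most 26 each.

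The difference between SI and LI was then tested at each level with edgeR's quasi-likelihood test over all 18 libraries, with p adjusted over all 26717 genes by the method of Benjamini and Hochberg. This fit took the libraries of the 3 levels as independent. Libraries of 1 site with the same replicate number deviated together, as given below, so p-values between the sites may be too small. The fold changes of the Hox genes were mostly below 0 (lower in SI), and 1 call was made over the 3 levels. In centre cells, 0 of 33 Hox genes tested passed an adjusted p of 0.05, against 1.99% of all genes. In border cells 1 of 33 passed (1.76% of all genes), and in row >3 cells 0 of 33 (4.09%). At an unadjusted p under 0.05 the counts were 5, 5 and 8, where 14.5%, 13.9% and 15.7% of all genes passed. DESeq2 called 1, 2 and 0 Hox genes and 4.64%, 4.54% and 6.34% of all genes, and gave no adjusted p to 14, 14 and 16 of the 33. The gene called in border cells was Hoxa11, with a log2 fold change of -6.11 (SE 1.51, adjusted p = 0.0319). With its 1 count in SI border, the LI to SI ratio was 86.1 with an exact 95% counting interval of 15.2 to 3426, which covers counting error only. This call was lost when any 1 of the 6 border libraries was left out. In centre and row >3 cells Hoxa11 had log2 fold changes of -3.26 (SE 1.12, adjusted p = 0.138) and -3.36 (SE 1.11, adjusted p = 0.0928).

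The other 2 genes whose sites did not overlap at any level missed the threshold. Hoxb7 had log2 fold changes of -0.87 (SE 0.32, adjusted p = 0.183) in centre, -1.21 (SE 0.33, adjusted p = 0.0650) in border and -0.95 (SE 0.32, adjusted p = 0.120) in row >3. For Hoxb2 the log2 fold changes were -1.92 (SE 0.83, adjusted p = 0.297), -1.88 (SE 0.88, adjusted p = 0.358) and -2.10 (SE 0.86, adjusted p = 0.238). Hoxa7, whose 3 SI replicates were spread from near 0 to LI levels, had log2 fold changes of -2.0, -1.93 and -1.99 with SE of 1.89, 1.89 and 1.91. The median log2 fold change of the 11 HoxA genes was -2.0 in centre, -1.59 in border and -1.91 in row >3. That of the 10 HoxB genes was -0.65, -0.44 and -0.77. The median over all genes tested was 0 at each level. Counted by library, 9 Hox genes in centre, 7 in border and 7 in row >3 had all 3 SI libraries below all 3 LI libraries, against 9.84%, 8.58% and 8.69% of all genes, and no Hox gene had all SI libraries above, against 8.49%, 6.45% and 9.03% of all genes.

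Without the 3 libraries of SI replicate 3, 14 of 31 Hox genes tested were lower in SI centre than in LI centre (6.39% of all genes were called lower), 13 of 31 in border (4.40%) and 17 of 31 in row >3 (5.36%). None was called higher in SI, where 4.51%, 3.70% and 6.80% of all genes were. Since these libraries were set aside after their Hox levels had been seen, and each SI group then has 2 libraries, the calls describe the remaining libraries. The fit again took same-numbered libraries of the 3 levels as independent, so its p-values, here and in the values that follow, may be too small. Of the 11 HoxA genes, 9, 8 and 10 were called lower in centre, border and row >3. Of the 10 HoxB genes the counts were 4, 5 and 6. In HoxD, Hoxd8 was called in centre and Hoxd4 in row >3, and no HoxC gene was called. The count in row >3 fell to 10 when SI row >3 replicate 1 was also left out, which left 1 SI library in that group, assumed to vary like the libraries of the other groups.

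Without SI replicate 3, the size of the difference varied along the HoxA cluster. As ratios of summed LI to SI counts at equal depth, it was between 4.57-fold and 22.6-fold for Hoxa2, Hoxa3 and Hoxa4, all of which were called at each level except Hoxa4 in border (adjusted p = 0.0895). Hoxa7 was lower in SI by log2 fold changes of -8.33 (SE 0.50, adjusted p = 6.3e-12) in centre, -7.88 (SE 0.55, adjusted p = 9.82e-11) in border and -8.78 (SE 0.51, adjusted p = 2.15e-12) in row >3. Hoxa9 had no count in SI border replicates 1 and 2, so its level was at least 276-fold higher in LI border, against a floor of 3 counts over both libraries. In centre, 1 SI count of Hoxa9 gave a ratio of 1560 with a counting interval of 280 to 61642. Hoxa10 was at least 167-fold higher in LI border, and Hoxa5 was at least 184-fold higher in LI centre and at least 82.4-fold in LI border. For the 3 HoxA genes with 5 to 9 SI counts in row >3 the ratios were 121 (Hoxa5), 36.9 (Hoxa6) and 475 (Hoxa7). Hoxa13 had no count in SI row >3 and was at least 12.6-fold higher there in the LI. In HoxB the differences were smaller than those of Hoxa5 to Hoxa10. Hoxb8 had log2 fold changes of -1.46 (SE 0.24, adjusted p = 0.000113), -1.44 (SE 0.25, adjusted p = 0.000371) and -1.92 (SE 0.25, adjusted p = 4.69e-06) in centre, border and row >3. Hoxb7 had -0.97, -1.88 and -1.10, and Hoxb9 -1.24, -1.27 and -1.08, all called. Hoxb2 had the largest differences of the HoxB genes called, with -4.27, -3.66 and -2.84, also called at each level. Hoxb3 was called in border (-1.36) and row >3 (-1.20) and Hoxb6 in row >3 alone (-1.06). Hoxb4 and Hoxb5 passed at no level, with log2 fold changes between -1.06 and 0.24.

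SI replicate 3 was the highest of the SI replicates at all 3 levels for each of the 19 genes above 1 CPM, which was so for 17.1% of the 14123 genes of this level. For Hoxa5, Hoxa6, Hoxa7, Hoxa9 and Hoxa10, its libraries had 40.2% to 112% of the LI mean, with a median of 52.0% in centre, 90.8% in border and 80.1% in row >3. SI replicates 1 and 2 had at most 3.88% of it, and their median was 0. For Hoxa2 to Hoxa4 the range in SI replicate 3 was 86.6% to 153%, against 0% to 31.8% in replicates 1 and 2. From Hoxb3 to Hoxb9 the values were 63.2% to 210% in replicate 3 and 19.6% to 121% in replicates 1 and 2. Car1 and Reg4 moved with these genes, as given above.

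**Figure D4:**
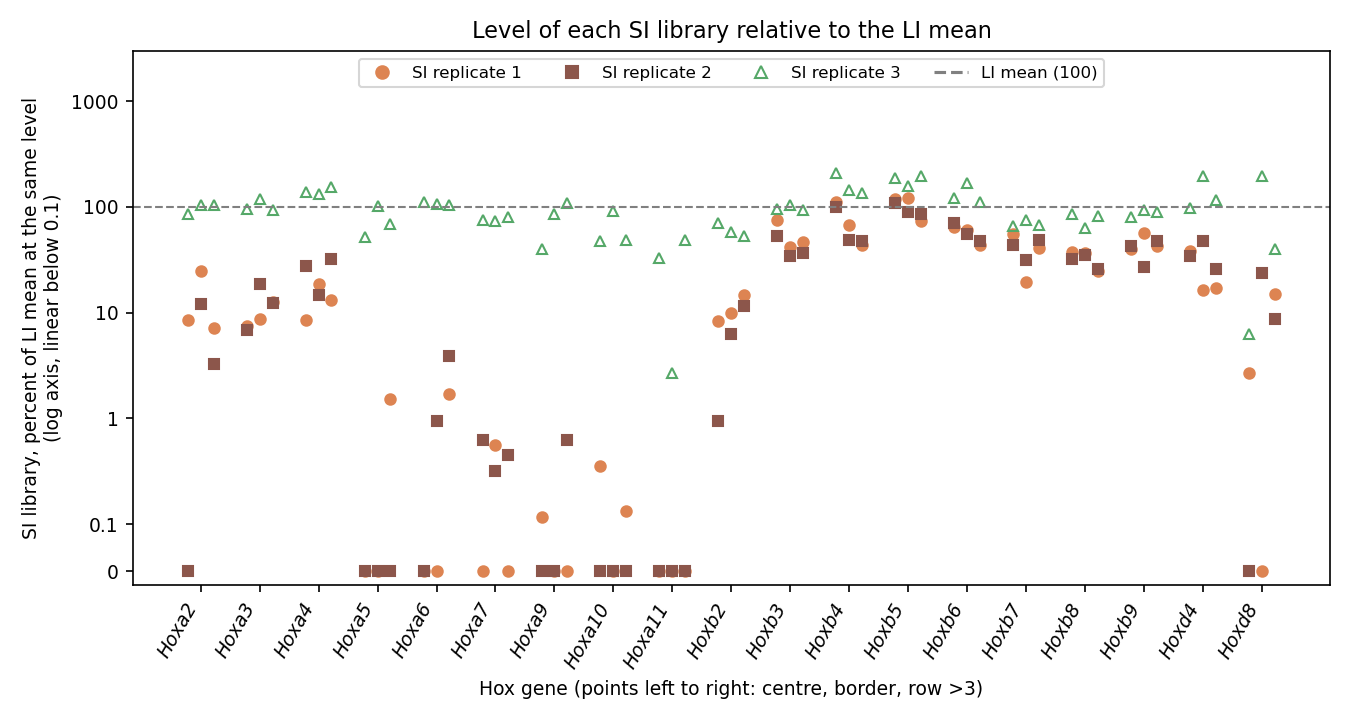
Level of each SI library as a percentage of the LI mean at the same level (y axis, log scale that is linear below 0.1) for the 19 Hox genes above 1 CPM (x axis, 3 positions per gene for centre, border and row >3). Circles and squares are SI replicates 1 and 2, which drop from Hoxa4 to Hoxa5 and lie between 19.6% and 121% from Hoxb3 to Hoxb9, and open triangles are SI replicate 3, which stays near the dashed LI line for most genes.

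Next, the levels of sorting were compared within each site, which asks whether Hox genes differ between centre and more distant Lgr5+ cells. Over all libraries and without a term for the replicate number, 0 of 33 Hox genes passed in border against centre of the SI (0.0112% of all genes passed), border against centre of the LI (0.00%), row >3 against centre of the SI (13.2%), row >3 against centre of the LI (0.0187%) or in the difference of the last 2 between the sites (0.00%). At an unadjusted p under 0.05 there was 1 Hox gene in the first of these and 0 in the others, against 8.98%, 1.38%, 23.9%, 6.96% and 6.74% of all genes in the same order, and DESeq2 called 0 in each. Without SI replicate 3, 1 of 31 was called in row >3 against centre of the SI (17.1%) and 0 in the other comparisons (0.963%, 0.00382%, 1.90% and 3.27% of all genes, in the same order). There, 2 Hox genes had an unadjusted p under 0.05 in row >3 against centre of the SI (26.2% of all genes), 1 in border against centre of the SI (7.07%) and 0 in the rest (2.47%, 12% and 11.9%). DESeq2 called 3 in row >3 against centre of the SI (18.8%) and otherwise 0. The gene called was Hoxb8, with a log2 fold change of -0.80 (SE 0.27, adjusted p = 0.0403). That call was lost when any 1 of the 6 remaining SI libraries was left out.

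Libraries of 1 site with the same replicate number deviated together, so the levels were also compared with same-numbered libraries of a site taken as blocks. With this block, 6 of 33 Hox genes passed in row >3 against centre of the SI, where 22.8% of all genes did, so the share of Hox genes was below that of all genes. Hoxb4 (log2 fold change -0.61, SE 0.18, adjusted p = 0.0189), Hoxb5 (-0.45, SE 0.16, adjusted p = 0.0466), Hoxb6 (-0.46, SE 0.13, adjusted p = 0.0123) and Hoxb8 (-0.65, SE 0.17, adjusted p = 0.00845) were lower in row >3. Each of these 4 genes was lower in row >3 than in centre in all 3 SI replicates. Hoxb9 was higher in row >3 (0.49, SE 0.16, adjusted p = 0.0349), in all 3 replicates. In this fit, HoxB genes were thus called in both directions, and the call of Hoxb9 was not kept without SI replicate 3, as given below. Hoxa9 was also higher (1.34, SE 0.29, adjusted p = 0.00169), but its counts came almost wholly from replicate 3, and without it the log2 fold change was 1.84 with an SE of 2.07 (adjusted p = 0.684). Without SI replicate 3 the block gave 5 of 31 Hox genes (23.7% of all genes): Hoxb3, Hoxb4, Hoxb5, Hoxb6 and Hoxb8, all lower, with log2 fold changes from -0.53 to -0.82, and Hoxb9 was at 0.49 (SE 0.19, adjusted p = 0.0832). Some markers of differentiated cells also differed between SI row >3 and SI centre. Their calls are from the fit over all libraries without the block, where 13.2% of all genes were called. Of 7 goblet cell markers, 5 were higher and 1 lower in SI row >3, and the list summed to 754 to 10645 CPM in SI centre and 32503 to 51652 CPM in SI row >3. Of 9 enterocyte markers, 4 were higher, and the list summed to 94.8 to 321 CPM in SI centre and 755 to 1943 CPM in SI row >3. In the other lists, 1 of 8 enteroendocrine and 1 of 6 tuft cell markers were higher, and 0 of 7 Paneth cell markers were called. In the LI the goblet list summed to 7435 to 12129 CPM in centre and 16160 to 25209 CPM in row >3. Their part in the Hox differences was not tested. Border against centre of the SI gave 1 of 33 with the block (2.32%), Hoxd8, at 4.59 (SE 1.15, adjusted p = 0.0384), which was at 3.20 (SE 2.52, adjusted p = 0.809) without SI replicate 3.

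In the LI, no Hox gene passed between levels with the block, where 0.00% of all genes were called in border and 2.59% in row >3 against centre over all libraries. Hoxb9 had a log2 fold change of 0.33 (SE 0.15, adjusted p = 0.316) in row >3 against centre and Hoxb8 one of -0.33 (SE 0.15, adjusted p = 0.335), and each had that direction in all 3 LI replicates. The difference between the sites was tested directly. With the block, 1 of 33 Hox genes passed over all libraries (2.32% of all genes), namely Hoxa9 at 1.46 (SE 0.33, adjusted p = 0.0264), and it lost the call without SI replicate 3 (1.98, SE 2.08, adjusted p = 0.848). Without SI replicate 3, 1 of 31 passed (7.63%), namely Hoxb4 at -1.11 (SE 0.27, adjusted p = 0.0157). Over all libraries Hoxb4 was at -0.91 (SE 0.26, adjusted p = 0.0712). For Hoxb8 and Hoxb9 the difference between the sites was -0.32 (SE 0.23) and 0.15 (SE 0.22), with adjusted p of 0.707 and 1.

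**Figure D5:**
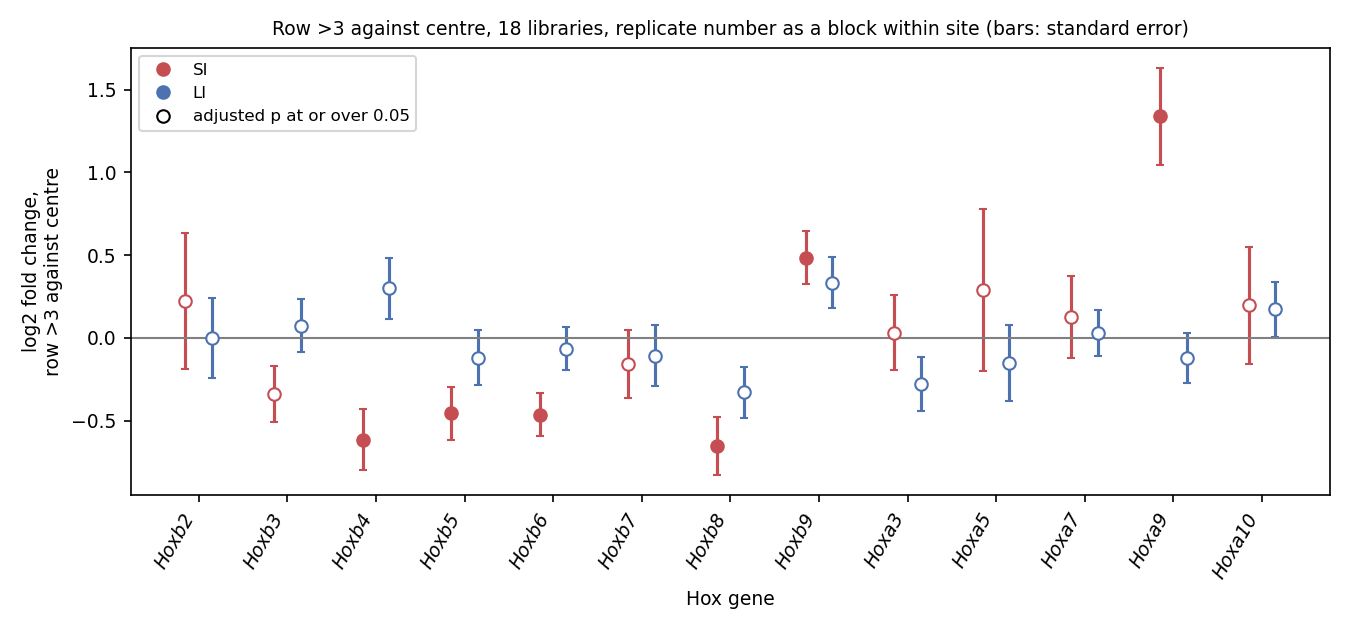
Log2 fold change of row >3 against centre (y axis, bars are the standard error) for the HoxB genes and 5 HoxA genes (x axis) in the SI (red) and LI (blue), over 18 libraries with same-numbered libraries of each site as blocks. Filled points passed an adjusted p of 0.05: Hoxb4, Hoxb5, Hoxb6 and Hoxb8 lie below 0 and Hoxb9 and Hoxa9 above it in the SI, and no LI point is filled.

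The LI replicates differed among themselves in the Hox genes as well. LI replicate 1 was the highest of the 3 at all levels for 14 of the 19 genes above 1 CPM, which held for 15.2% of the 14123 genes of this level. The gap depended on the gene. Averaged over the 3 levels, Hoxb4 was at 34.6 CPM in LI replicate 1, 17.4 in replicate 2 and 12.3 in replicate 3. Hoxa4 was at 4.57, 3.06 and 1.61 CPM and Hoxa6 at 10.2, 5.54 and 3.64 CPM, so the ratio of replicate 1 to replicate 3 was 2.81, 2.84 and 2.79 for these 3 genes. It was 2.01 for Hoxb5, 1.85 for Hoxb6, 1.67 for Hoxa3 and 1.58 for Hoxa5. For the other genes of HoxA and HoxB above 1 CPM it was between 1.03 (Hoxa10) and 1.32 (Hoxa11), so high and low ratios both occurred among anterior and central genes. Hoxd8 went the other way, with 0.640, 1.28 and 2.88 CPM in LI replicates 1, 2 and 3. Of the 19 genes, only Hoxd8 was highest in LI replicate 3 at all 3 levels, which held for 15.8% of the 14123 genes.

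Lists of known regulators and partners of Hox genes were read against the 1.99%, 1.76% and 4.09% of all genes called between the sites in centre, border and row >3 over all libraries. Of 9 cofactor genes (PBX, MEIS and PKNOX), none was called at any level over all libraries, and without SI replicate 3, where 10.9% of all genes were called in centre, 1 was higher in SI and 1, Meis3, lower (-1.14, SE 0.30, adjusted p = 0.0115). Meis1 and Meis2 had at most 4 counts in any library, so Meis3 (5.34 to 21.2 CPM) was the expressed MEIS gene. Of 3 Cdx genes, Cdx1 was lower in SI centre than in LI centre (log2 fold change -0.60, SE 0.14, adjusted p = 0.0304), also without SI replicate 3 (-0.65, SE 0.15, adjusted p = 0.00411), and none was called at the other levels over all libraries. Cdx2 was at 90, 85.2 and 156 CPM in SI centre, 92.4, 82.6 and 184 CPM in SI border and 98.5, 85.4 and 200.1 CPM in SI row >3, against 145 to 250 CPM in the LI. SI replicate 3 thus had LI levels of Cdx2. Its Cdx1 was nearer to the other SI libraries, at 74.6%, 88.2% and 80.2% of the LI mean in centre, border and row >3. SI replicates 1 and 2 had 61.5% to 85.2% of the LI mean of Cdx1. With SI replicate 3 left out, Cdx2 was lower in SI at all levels, by -0.88, -1.004 and -1.19 (adjusted p = 0.000396, 0.000146 and 8.16e-06). Cdx4 had 1 count in all.

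Of 17 Polycomb genes, 0, 0 and 1 were called between the sites in centre, border and row >3, the last being Phc1, lower in SI (-1.02, SE 0.29, adjusted p = 0.0482). Of 8 MLL and H3K27 demethylase genes none was called, and without SI replicate 3 only Kmt2b was, higher in SI border (0.66, adjusted p = 0.0177). Without SI replicate 3, Polycomb had 2, 2 and 2 calls of 17, where 10.9%, 8.11% and 12.2% of all genes were called in either direction: Jarid2 was higher in SI at all 3 levels and Cbx2 in centre, and Phc1 was lower in border and row >3. Of the 14 noncoding and Evx genes of the clusters with counts, none was called over all libraries, and 4, 2 and 4 were lower in SI without replicate 3 (6.39%, 4.40% and 5.36% of all genes were), among them Hoxaas3 and Hoxb5os at each level. Hotair, Evx2, Mir196a-2, Mir196b and Mir615 had no count. Between row >3 and centre of the SI, where 13.2% of all genes were called over all libraries, 1 of 9 cofactor genes, 1 of 3 Cdx genes, 2 of 17 Polycomb genes, 0 of 8 MLL and demethylase genes and 0 of 14 noncoding and Evx genes were called. Ezh2, the methyltransferase of Polycomb complex PRC2, was lower in row >3 than in centre (-0.92, SE 0.18, adjusted p = 0.00167), and so was Cbx6 (-2.27, SE 0.32, adjusted p = 8.17e-05), whereas Cdx1 was higher (0.71, SE 0.14, adjusted p = 0.00199). With SI replicate 3 left out, these log2 fold changes were -0.90, -2.12 and 0.82 (adjusted p = 0.00048, 4.86e-06 and 0.000625). No gene of these lists was called between levels of the LI over all libraries (0.00% of all genes in border and 0.0187% in row >3 against centre). With SI replicate 3 left out, 1 of 9 cofactor genes and 1 of 17 Polycomb genes were called in row >3 (1.90% of all genes), the latter being Cbx6, lower in row >3 (-0.95, SE 0.22, adjusted p = 0.0240).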

How the data were processed

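Bulk RNA from 18 libraries (6 groups of 3) was analysed. The authors made the raw counts per gene by trimming with Skewer and aligning to mm10 with STAR, and deposited them unnormalized. Neither the annotation release nor the strand setting is stated in the sources used. A second deposited table holds the same counts divided by 1 factor per library and was not used.

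Counts were tested with edgeR 4.0.16 in R 4.3.3 (TMM factors, genes with a mean count above 0, 1 model of the 6 groups, robust quasi-likelihood test, Benjamini-Hochberg adjustment over all genes, threshold 0.05), checked on simulated data. The older quasi-likelihood fit of edgeR was also run, and the choice between them was made after both results were seen. DESeq2 1.42.0, other filters and scalings, blocks and left-out libraries were alternatives, and analyses without SI replicate 3 were chosen with its values known. Library totals were 8312093 to 31940965 counts. Intervals and floors cover counting error only. Deviations from group means of same-numbered libraries correlated within the SI (0.161 to 0.555) and the LI (0.198 to 0.391) over 15950 genes. Across sites the range was -0.0630 to 0.221 and only replicate 2 reached 0.1 (0.0819 to 0.221), so blocks were nested in site, a pairing seen in the data and not stated in the labels. P-values measure the spread between these samples, which the labels do not tie to mice. The members and gene lists were chosen with earlier results of these data known. Genes reaching a group mean of 1 CPM are described library by library, with full statistics for members called in the fit over all libraries or not overlapping between the sites at all 3 levels. Python 3.11.15, pandas 2.3.3, SciPy 1.17.1 and matplotlib 3.10.9 were used for the other steps. A few genes are not reported here.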

Additional observations from a re-analysis of the deposited data

Results flagged for a closer look

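The change from centre to row >3 was compared between the sites by edgeR's test of the difference itself, with same-numbered libraries of a site as blocks. In each of 2 fits, 1 Hox gene passed. It was Hoxa9 over all libraries, where 2.32% of all genes passed, and Hoxb4 without SI replicate 3, where 7.63% did. Neither gene was called in both fits. Hoxa9 had a difference of 1.46 (1.45822 on the log2 scale, SE 0.33, adjusted p = 0.0264) over all libraries, higher in SI row >3 relative to the LI. Its SI counts in centre were 1, 0 and 292 and in row >3 they were 0, 5 and 432, so the counts were almost wholly those of replicate 3, and without SI replicate 3 the difference was not called (1.98, SE 2.08, adjusted p = 0.848). Hoxb4 had a difference of -1.11 (-1.11263 on the log2 scale, SE 0.27, adjusted p = 0.0157) without SI replicate 3, being lower in row >3 than in centre in both remaining SI replicates. Over all libraries it was at -0.91 (adjusted p = 0.0712). No other Hox gene had such a difference in these fits.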

How the results depend on the processing

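The number of Hox genes called between the sites depended most on SI replicate 3. Over all libraries it was 0 in centre, 1 in border and 0 in row >3, and without SI replicate 3 it was 14, 13 and 17. In centre it was 1 with DESeq2, library size only, a replicate block over all libraries or only the groups compared. In border it was 2 with DESeq2, filterByExpr, library size only or the replicate block over all libraries, and 0 without a filter, with only the groups compared or with the legacy fit. In row >3 it was 2 with library size only or the replicate block over all libraries and 1 with only the groups compared. With the 3 levels summed per site and replicate number it was 2. Leaving out 1 library gave 0 to 2 in centre (2 without SI centre or SI border replicate 3, 1 without LI centre replicate 1), 0 to 2 in border (0 without any of SI border replicates 1 and 2 or LI border replicates 1, 2 and 3, and 2 without replicate 3 of any SI group) and 0 to 4 in row >3 (4 without SI row >3 replicate 3, 1 without SI centre or SI border replicate 3). Without SI replicate 3, leaving out 1 more library gave 10 to 16 in centre, 9 to 14 in border and 10 to 18 in row >3. Where this left a group with 1 library, that library was assumed to vary like the other groups, so these ranges say little of stability.

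Between levels, the replicate block within site moved the count from 0 to 1 in border against centre of the SI, to 6 in row >3 against centre of the SI and to 1 in the difference between the sites, and it changed no other count. Leaving out 1 library gave 0 to 1 in row >3 against centre of the SI (1 without SI row >3 replicate 3), and leaving out SI replicate 3 gave 1 there. From there the count was 2 with library size only, 3 with DESeq2 and 5 with either replicate block, 0 to 1 without 1 more library, and 1 with the block within site in the difference between the sites. The causes of these shifts were not tested. Under the alternatives, 338 counts stayed within 1.5 times the value reported and 51 moved. No called Hox gene reversed its direction. Genes under 1 CPM, among them all of HoxC, are limited by depth.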
